A study of Macaca mulatta with 16 samples.

Results

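The microRNAs (miRNAs) described here were those of the fetal rhesus monkey (Macaca mulatta) retina whose miRBase number is 1000 or higher, called late-numbered miRNAs below. The names chose them: every row named mml-miR-N with N of at least 1000 was taken, either arm included, except miR-1185, miR-1193 and miR-1197. This gave 39 of the 339 rows of the miRNA table, from 30 hairpins, of which 9 had both arms listed. They were set against 289 lower-numbered rows. The other 10 rows of the let-7 family, which carry no miR number, and the row of miR-1185-3p were in neither class. On the number scale, miR-942-5p was the nearest row outside, with 3, 3 and 1 TPM (reads normalised to the library total, whole numbers in the table) in temporal and 2, 3 and 2 TPM in nasal libraries. The nearest row inside was miR-1180-3p, with 382, 492 and 334 TPM in temporal and 407, 570 and 457 TPM in nasal libraries.

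The libraries came from normal fetuses at 50 days of gestation, with no treatment and no altered gene. In each region, 3 biopsy punches were sequenced: the temporal group lies on the side of the optic nerve head where the fovea will form, and the nasal group at the matching distance on the opposite side. At this age a punch took up most of the way to the retinal margin, so that the temporal group holds more than the future fovea. The mRNA of the same tissue was available as the authors' mean per region. Each punch is bulk tissue, in which fewer cells of a type and less RNA per cell cannot be told apart.

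A miRNA is cut out of a hairpin in a longer transcript, first in the nucleus by DROSHA with its partner DGCR8 and then, after export by XPO5, in the cytoplasm by DICER1. Either arm of the hairpin, named 5p or 3p, can be loaded into an Argonaute protein, where its seed, the bases near the 5′ end, finds target mRNAs. Many hairpins lie inside introns of protein-coding genes, and some, the mirtrons, are whole short introns that splicing and the lariat enzyme DBR1 release without DROSHA. Numbers are given in the order in which miRNAs are registered, so a high number tells of late discovery, often by deep sequencing and in few species. It does not by itself tell that a miRNA is restricted to a lineage. Several of the 39, among them miR-1247, miR-1249, miR-1251, miR-1298 and miR-1306, have counterparts of the same number in mouse, so the set is called here by its numbering. Restriction to primates was not tested.

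All 7 marker miRNAs of retinal neurons and progenitors were listed, with summed deposited levels of 37223 to 40951 TPM in temporal and 17187 to 27754 TPM in nasal libraries. After the rescaling described below, the sums were 37277, 27331 and 31612 in temporal and 24799, 24872 and 28679 in nasal libraries. The rescaled sums thus overlapped between the regions, but they mix markers of opposite direction. Rescaled, both arms of miR-204 were lower in temporal retina (log2 difference -0.47 for miR-204-5p and -1.38 for miR-204-3p). The rows of the other markers were higher there, from 0.23 for miR-181a-5p to 1.79 for miR-182. The second nasal library stood apart. It had 551 TPM of the endothelial miR-126, against 21 to 42 TPM in the other 5 libraries, and 288 TPM of miR-143, a miRNA of smooth muscle and pericytes, against 2 to 5 TPM. These were the only markers of vessels listed, 2 of 3, and their sum was 839 TPM there, against 26 to 47 TPM in the other libraries. The single listed marker of mesenchyme (1 of 3), miR-199a, and that of blood (1 of 5), miR-486, were also highest in this library, at 42 and 123 TPM, against 6 to 19 and 42 to 70 TPM elsewhere; miR-451, miR-144, miR-142, miR-223, miR-145, miR-214 and miR-10b were not among the listed rows. The pigment epithelium marker miR-211 was at 83 to 125 TPM in temporal and 61, 210 and 97 TPM in nasal libraries, again highest in the second nasal one. Listed values summed to 309924 to 353553 TPM in temporal and to 178383 to 358430 TPM in nasal libraries. For comparisons between regions, libraries were therefore rescaled by median ratios, the median over 330 miRNAs of each library's value relative to their geometric mean.

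The late-numbered miRNAs were scarce. Their median level was 7.83 TPM over the 6 libraries (interquartile range 3.92 to 32.7, range 1.83 to 949), against 50.2 TPM for the lower-numbered rows (interquartile range 9.33 to 278, range 1.5 to 27060), a 6.40-fold difference of the medians. The order was the same in every library: the median was 8, 10 and 10 TPM in temporal and 5, 10 and 6 TPM in nasal libraries for late-numbered rows, and 47, 61 and 48 TPM in temporal and 31, 48 and 30 TPM in nasal libraries for lower-numbered rows. A level of at least 5 TPM was reached by 27 of 39 late-numbered rows (69.2%) and 84.8% of the lower-numbered rows. At least 100 TPM was reached by 5 (12.8%) and by 106 (36.7%), and at least 1000 TPM by 0 and by 36 (12.5%). Of the 39 rows, 31 (79.5%) lay below the median of the whole table, 42.5 TPM, against 46.7% of the lower-numbered rows. Because rows are not replicates, these shares carry no test.

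**Figure D1:**
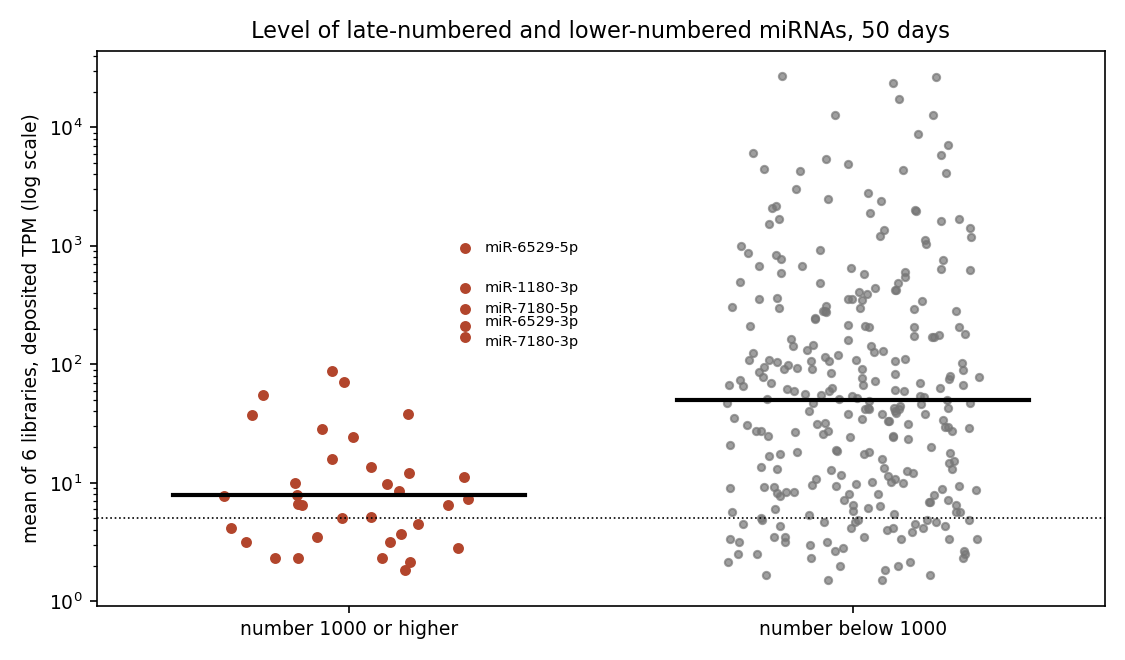
Mean level of each miRNA over the 6 libraries in deposited TPM, on a log axis, for 39 late-numbered and 289 lower-numbered rows; bars are medians (7.83 and 50.2 TPM), the dotted line is the minimum of 5 TPM used for testing, and sideways position within a class carries no meaning. The 5 late-numbered rows of at least 100 TPM are named, and no late-numbered row reaches 1000 TPM.

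Within the set, the median level was lower in each block of higher numbers, a description with no test. The 14 rows from miR-1180 to miR-1306, from 12 hairpins, had a median of 19.1 TPM, and the 3 rows miR-3938-3p, miR-4446-3p and miR-4803 one of 8.50 TPM. The 7 rows from miR-6505 to miR-6827 had a median of 7.83 TPM and the 15 rows from miR-7166 to miR-7205 one of 5 TPM. Of these 4 blocks, 12, 2, 5 and 8 rows passed the minimum of 5 TPM. Each block had members far above its median, except the block of 3, where the highest mean was 16 TPM.

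Most of the signal came from 5 arms of 3 hairpins. The most abundant late-numbered miRNA was miR-6529-5p, at rank 42 of 339, followed by miR-1180-3p (rank 61), miR-7180-5p (rank 78), miR-6529-3p (rank 87) and miR-7180-3p (rank 96). Together these 5 arms made up 80.2% of the summed mean level of the set. The set itself made up 0.869% of the sum over all rows, the lower-numbered rows 80.5% and let-7 18.6%. By library, late-numbered miRNAs took 0.585%, 0.754% and 0.685% of the listed TPM in temporal and 1.22%, 1.06% and 1.12% in nasal libraries. These shares did not overlap between the regions. Without both arms of miR-6529 they were 0.379%, 0.467% and 0.418% in temporal and 0.578%, 0.519% and 0.568% in nasal libraries. The summed TPM of the set did overlap, at 1813, 2665 and 2328 TPM in temporal and 2173, 3813 and 2660 TPM in nasal libraries. The shares therefore depend on the listed totals, which differed between libraries, and they carry no test.

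The comparison of the regions asked which miRNAs differ between temporal retina, which holds the future fovea and more, and its nasal counterpart. Of the 39 late-numbered miRNAs, 27 had a mean of at least 5 TPM and were tested. The test found 7 of these 27 lower in temporal retina and 0 higher at an adjusted p below 0.05 (limma on log2 of the rescaled TPM + 1, with Benjamini-Hochberg adjustment over 283 miRNAs). Among the 7, miR-7184-3p and miR-7205-5p passed the minimum only through their nasal means, 6.67 and 15.3 TPM. Their temporal means were 3.67 and 4.67 TPM, so their calls are not independent of the minimum. Over all 283 tested miRNAs, 14.5% were called lower and 13.4% higher, so the share of late-numbered miRNAs called in either direction, 25.9%, was near that of all tested rows, 27.9%. The median log2 difference was -0.36 for the 27 and 0.01 for all tested miRNAs, and 18 of the 27 (66.7%) lay below 0, against 49.5% of all. The rescaled values of the regions did not overlap for 9 of the 27, against 43.5% of all tested miRNAs. At an unadjusted p below 0.05, 10 of the 27 differed (37.0%), against 41.7% of all tested miRNAs.

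These directions are relative to the scaling. With the deposited TPM and no rescaling, the median difference over all tested miRNAs was 0.52, 0 late-numbered miRNAs were called lower and 3 higher (miR-1298-5p, miR-1296-5p and miR-4803), and 77 of all miRNAs were called higher and 3 lower, against 38 and 41 with median ratios. Scaling to the total of the table, with a median over all miRNAs of 0.13, gave 6 lower and 1 higher in the set and 47 higher and 34 lower among all. Upper quartile scaling (median -0.03) gave 7 lower and 0 higher in the set and 24 higher and 40 lower among all. In TPM, a difference in the total amount of miRNA and one in the yield of the libraries cannot be told apart.

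Both arms of miR-6529 were lower in temporal retina. For miR-6529-5p the deposited values were 532, 832 and 778 TPM in temporal and 987, 1508 and 1055 TPM in nasal libraries, so every temporal library was below every nasal one before any rescaling. Rescaled, it averaged 584 ± 89.0 in temporal and 1408 ± 50.3 in nasal retina (SD, n = 3 each), 2.43-fold lower (log2 difference -1.28, SE 0.155, limma adjusted p = 0.00199). The opposite arm, miR-6529-3p, had 105, 181 and 128 TPM in temporal and 155, 445 and 251 TPM in nasal libraries, where the first nasal library was below the second temporal one. After rescaling the regions were apart, with 112 ± 19.0 in temporal and 322 ± 89.7 in nasal retina, 2.80-fold lower (log2 difference -1.49, SE 0.241, limma adjusted p = 0.00521). Without the second nasal library, the log2 differences were -1.32 for miR-6529-5p and -1.33 for miR-6529-3p, with adjusted p of 0.00398 for the 5p and 0.00527 for the 3p arm.

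The other abundant hairpins had smaller differences. For miR-1180-3p the deposited values overlapped, as listed above, and the rescaled values did not: 330 ± 42.6 in temporal and 575 ± 59.2 in nasal retina (SD, n = 3 each), 1.74-fold lower (log2 difference -0.80, SE 0.160, limma adjusted p = 0.00876). Without the second nasal library it was called (-0.90, adjusted p = 0.0113) and without the third it was just past the threshold (-0.77, adjusted p = 0.0510). The arm miR-7180-5p had 213, 324 and 300 TPM in temporal and 188, 441 and 297 TPM in nasal libraries, with temporal values inside the nasal range. Rescaled, it averaged 228 ± 30.7 in temporal and 358 ± 75.4 in nasal retina, 1.55-fold lower (log2 difference -0.63, SE 0.201, limma adjusted p = 0.0485). This call was lost on leaving out any single library except the first nasal one, with adjusted p from 0.0745 to 0.164, and with consecutive sample codes as a block (adjusted p = 0.0867). The arm miR-7180-3p, at 127, 212 and 200 TPM in temporal and 97, 217 and 171 TPM in nasal libraries, was not called (log2 difference -0.36, SE 0.235, limma adjusted p = 0.297).

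The other 3 called miRNAs were scarce. In miR-4446-3p the deposited values were 10, 13 and 13 TPM in temporal and 19, 24 and 17 TPM in nasal libraries, again with every temporal library below every nasal one. Rescaled, it averaged 9.87 ± 0.969 in temporal and 24.1 ± 3.02 in nasal retina, 2.30-fold lower (log2 difference -1.20, SE 0.194, limma adjusted p = 0.00521). It was called without each single library in turn, and at -1.29 without the second nasal one (adjusted p = 0.00522). For miR-7184-3p the values were 4, 3 and 4 TPM in temporal and 4, 10 and 6 TPM in nasal libraries, so close to the rounding of the table that the first library of each region had the same value. Its rescaled means were 3.07 ± 0.765 in temporal and 7.66 ± 1.67 in nasal retina, 2.12-fold lower (log2 difference -1.09, SE 0.234, limma adjusted p = 0.0124). Without the second nasal library its mean fell below 5 TPM and it was not tested, and without the third it was not called (-1.07, adjusted p = 0.0583).

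The last of the 7, miR-7205-5p, had the lowest log2 difference of the set and the widest spread. It was at 1, 6 and 7 TPM in temporal and 4, 28 and 14 TPM in nasal libraries, and the regions overlapped before and after rescaling. Rescaled means were 3.74 ± 2.56 in temporal and 16.7 ± 9.90 in nasal retina, 3.69-fold lower on the log2(value + 1) scale (log2 difference -1.88, SE 0.599, limma adjusted p = 0.0485). The call was lost on leaving out any single library except the first nasal one, with adjusted p from 0.0607 to 0.171, and with consecutive sample codes as a block (adjusted p = 0.0787). Without the second nasal library, the one with the high vascular miRNAs, it was -1.50 (adjusted p = 0.0748), and 4 of the 7 calls remained: miR-6529-5p, miR-6529-3p, miR-4446-3p and miR-1180-3p. Without the third, 3 calls were made. Over all tested miRNAs, lower calls fell from 41 to 28 without the second nasal library and to 22 without the third. The part of vascular cells in the differences of the members was not tested beyond leaving out the second nasal library.

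**Figure D2:**
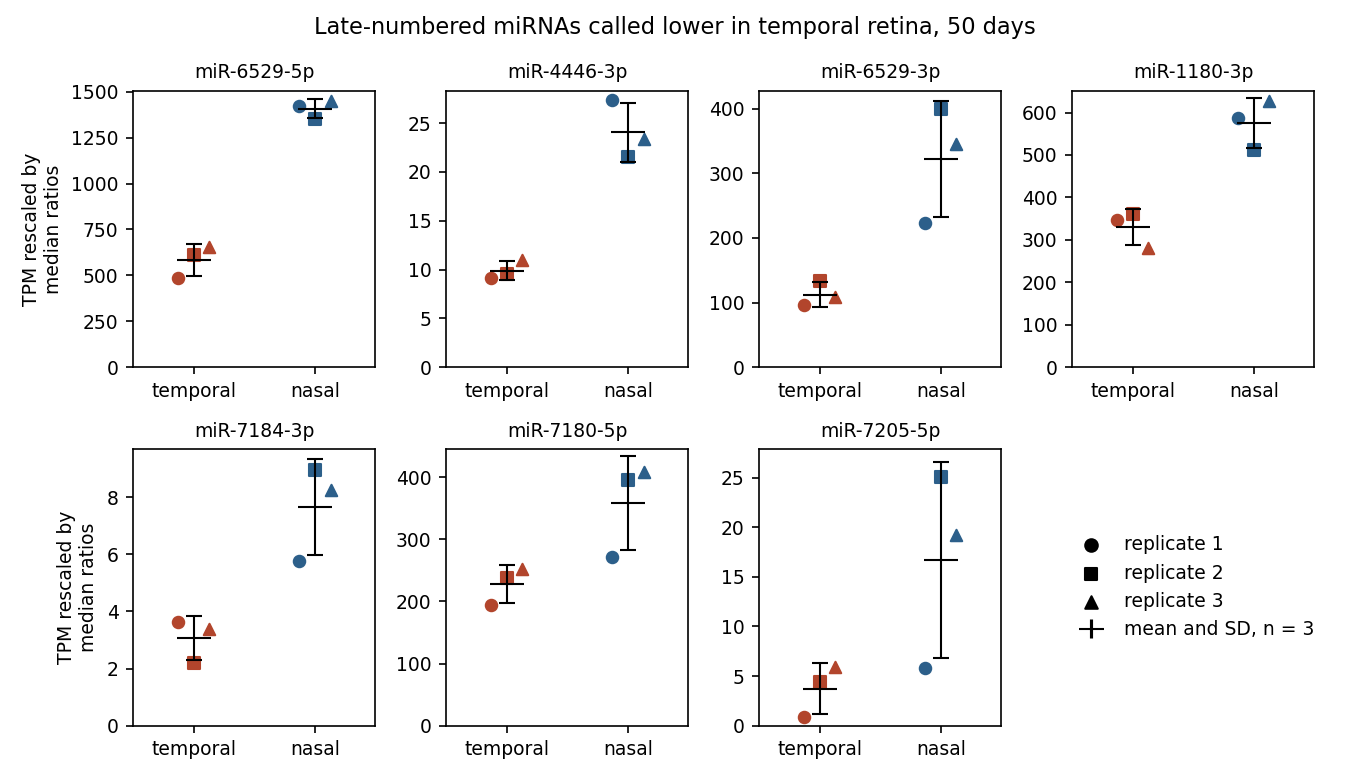
Rescaled TPM (linear axis from 0) of the 7 late-numbered miRNAs called lower in temporal retina, with temporal libraries left and nasal libraries right in each panel; symbols are replicates and bars are mean and SD (n = 3). Only miR-7205-5p has temporal and nasal values that overlap.

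The remaining 20 tested members gave no call, with log2 differences from -0.89 to 0.77. The highest was that of miR-1298-5p, at 13, 8 and 12 TPM in temporal and 3, 7 and 3 TPM in nasal libraries. Its deposited values did not overlap and its rescaled ones did (9.27 ± 3.07 in temporal and 4.91 ± 1.19 in nasal retina; log2 difference 0.77, SE 0.277, 95% interval 0.13 to 1.40, limma adjusted p = 0.0731), and without the second temporal library it was called (1.02, adjusted p = 0.0258). The deposited values of miR-1296-5p were 50, 44 and 52 TPM in temporal and 28, 28 and 20 TPM in nasal libraries, apart before rescaling, and its log2 difference after it was 0.39 (SE 0.246, adjusted p = 0.274). Likewise miR-4803 had 10, 12 and 11 TPM in temporal and 6, 7 and 5 TPM in nasal libraries, apart before and after rescaling, and a log2 difference of 0.29 (SE 0.191, adjusted p = 0.291). These 3 were the members called higher when the TPM were not rescaled.

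The miRNA miR-1271-5p shares its seed with miR-96, a sensory miRNA of photoreceptors. It had 72, 62 and 76 TPM in temporal and 37, 52 and 31 TPM in nasal libraries, with no overlap, and a log2 difference after rescaling of 0.28 (SE 0.210, limma adjusted p = 0.365). For mml-miR-96, the values were 64, 24 and 89 TPM in temporal and 7, 20 and 7 TPM in nasal libraries, with a log2 difference of 1.74 (SE 0.506, limma adjusted p = 0.0355). The second temporal library was the lowest temporal one for both. The difference between these 2 miRNAs was not tested.

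The arm miR-1247-5p, from a hairpin that lies in human in the imprinted DLK1-DIO3 domain, had 58, 121 and 88 TPM in temporal and 67, 106 and 83 TPM in nasal libraries. After rescaling its regions did not overlap (71.9 ± 18.1 in temporal and 102 ± 10.5 in nasal retina), yet it was not called (log2 difference -0.52, SE 0.222, limma adjusted p = 0.112). Its partner miR-1247-3p, with 11, 30 and 29 TPM in temporal and 12, 38 and 27 TPM in nasal libraries, had a log2 difference of -0.64 (SE 0.394, adjusted p = 0.263), and miR-7205-3p, with 5, 14 and 10 TPM in temporal and 6, 26 and 11 TPM in nasal libraries, one of -0.89 (SE 0.385, adjusted p = 0.115). In both, the first library of each region was the lowest. With the replicate number as a block, these 2 were called, with adjusted p of 0.0376 for miR-1247-3p and 0.0170 for miR-7205-3p, and the count of late-numbered miRNAs called lower was 9. Over all tested miRNAs, 47 were called lower with this block and 41 in the main fit without it.

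Of the members not yet given, miR-7186-5p had 59, 80 and 82 TPM in temporal and 48, 91 and 66 TPM in nasal libraries (log2 difference -0.40, adjusted p = 0.144), and its rescaled values, 53.7 to 69.1 in temporal and 69.3 to 90.6 in nasal retina, were apart by a narrow margin. The others overlapped. For miR-1260b the values were 30, 52 and 45 TPM in temporal and 18, 49 and 35 TPM in nasal libraries. The mirtron miR-1226 was at 18, 34 and 36 TPM in temporal and 13, 44 and 25 TPM in nasal libraries, and miR-1249 at 10, 16 and 14 TPM in temporal and 7, 19 and 16 TPM in nasal libraries; without the first nasal library miR-1249 was called (-0.81, adjusted p = 0.0252). Both arms of miR-6505 were scarce and neither was called. The arm miR-6505-3p had 8, 9 and 10 TPM in temporal and 5, 11 and 4 TPM in nasal libraries (log2 difference 0.01, SE 0.234, limma adjusted p = 0.959). The values of miR-6505-5p were 6, 10 and 8 TPM in temporal and 4, 7 and 5 TPM in nasal libraries (log2 difference 0.04, SE 0.189, limma adjusted p = 0.908). The remaining tested members, miR-1306-5p, miR-6827-5p, miR-7172-5p, miR-1304, miR-1251-5p and miR-7198-3p, had means between 5 and 11.2 TPM and log2 differences between -0.37 and 0.13.

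**Figure D3:**
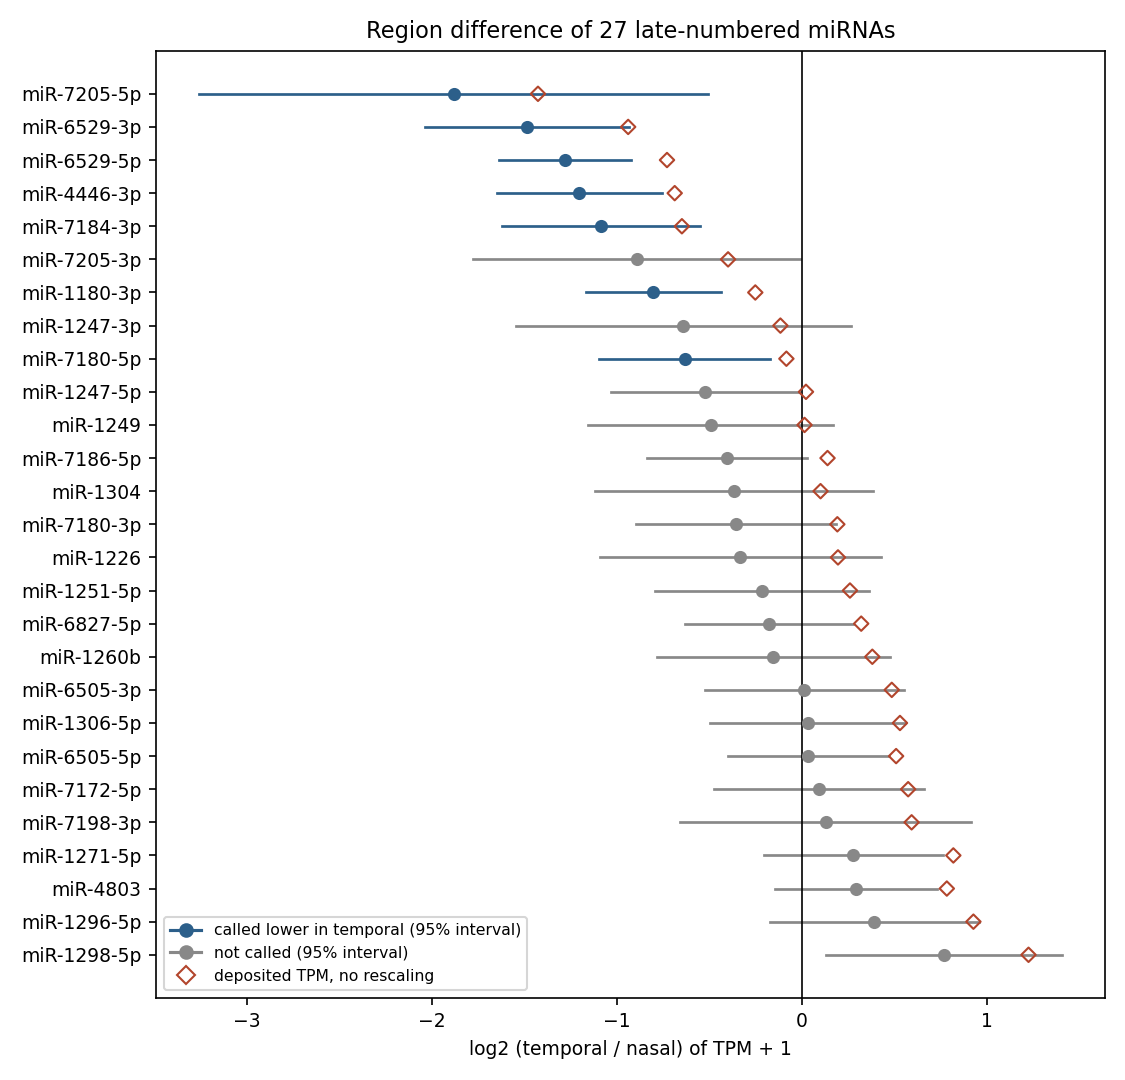
Log2 difference, temporal over nasal, of the 27 tested late-numbered miRNAs with 95% intervals from limma; filled points are rescaled TPM + 1 (blue where called lower) and open diamonds are deposited TPM + 1 without rescaling. The diamonds lie to the right of the points: 18 of 27 points are below 0, and 9 of 27 diamonds.

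The 12 late-numbered miRNAs below the minimum were miR-7174-5p, miR-6827-3p, miR-7170-5p, miR-7170-3p, miR-7181-3p, miR-7202-5p, miR-7202-3p, miR-6790-3p, miR-3938-3p, miR-7166-5p, miR-1306-3p and miR-1243-3p. Their means were 1.83 to 4.50 TPM and their single values 0 to 7 TPM. The 0 was the single one in the set and belonged to miR-1243-3p in the third nasal library. In whole TPM, 1 unit is a large part of such a value, so no difference below that step could be seen. With no minimum, miR-1306-3p (1, 2 and 2 TPM in temporal, 2, 4 and 2 TPM in nasal libraries) was called lower, with a log2 difference of -0.80 and a limma adjusted p of 0.0385. In the same fit miR-1243-3p (3, 3 and 3 TPM in temporal, 1, 1 and 0 TPM in nasal libraries) was called higher, at 1.06 with an adjusted p of 0.0484.

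Late-numbered miRNAs as a set also stood off from the mean of their region in some libraries, a description with no test. Relative to the mean of its region, the median member stood at -0.21, 0.10 and 0.14 on the log2 scale in the temporal and -0.13, 0.03 and 0.13 in the nasal libraries. The median over all 283 tested miRNAs lay between -0.03 and 0.05. Rescaling by median ratios holds that median near 0, so it is no independent background. The 27 members also include both arms of 5 hairpins, which are not independent rows. The first temporal library was the lowest of its region for 17 of 27 members (63.0%), against 31.4% of all tested miRNAs, and the first nasal library for 14 (51.9%), against 43.8%. The third nasal library was the highest of its region for 13 (48.1%), against 29.3% of all tested miRNAs. In deposited TPM the second nasal library was the highest nasal one for 25 of 27 members (92.6%) and for 83.7% of all tested miRNAs. After rescaling it was the highest for 8 members (29.6%), near the 30.7% of all tested miRNAs. Whether the members vary together more than other scarce rows was not tested, and neither was a cause.

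The arms of a hairpin come from the same precursor, so their ratio was compared within each library. Of 62 hairpins with both arms at 5 TPM or more, 48.4% had the 5p arm higher and 45.2% the 3p arm higher at an adjusted p below 0.05, 93.5% in either direction (limma on the within-library log2 difference, Benjamini-Hochberg over 62). Among the late-numbered hairpins, 5 could be tested and 4 were called. The 5p arm was the higher one by 4.82-fold in miR-6529 (log2 2.27, SE 0.125, adjusted p = 5.0e-12), by 3.68-fold in miR-1247 (log2 1.88, SE 0.136, adjusted p = 2.98e-10) and by 1.72-fold in miR-7180 (log2 0.78, SE 0.102, adjusted p = 9.99e-07). In miR-7205 the 3p arm was the higher one by 1.44-fold as a mean over both regions (log2 -0.52, SE 0.139, adjusted p = 0.00186). Its nasal libraries lay on both sides of 0, at -0.51, 0.10 and 0.33. In miR-6505 the arms were not called different (-0.18, SE 0.122, adjusted p = 0.160), except without the third nasal library (-0.30, adjusted p = 0.0376). The median size of the arm difference was 0.78 on the log2 scale in these 5 hairpins and 2.83 in all 62.

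The arm ratio differed between the regions in 46.8% of the 62 hairpins, and among the late-numbered ones in miR-7205. Its 5p arm minus its 3p arm was -1.54, -1.06 and -0.45 on the log2 scale in temporal and -0.51, 0.10 and 0.33 in nasal libraries, with overlap between the third temporal and the first nasal library. The change between the regions was -0.99 (SE 0.278, adjusted p = 0.00775). It was -0.92 without the second nasal library (adjusted p = 0.00170), and was not called without the second temporal one (-0.95, adjusted p = 0.0753). In deposited TPM its arms had 1 and 5 TPM in the first temporal library, so a few units decide the ratio there. In the other 4 hairpins the change was between -0.28 and 0.21, with adjusted p from 0.270 to 0.971.

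**Figure D4:**
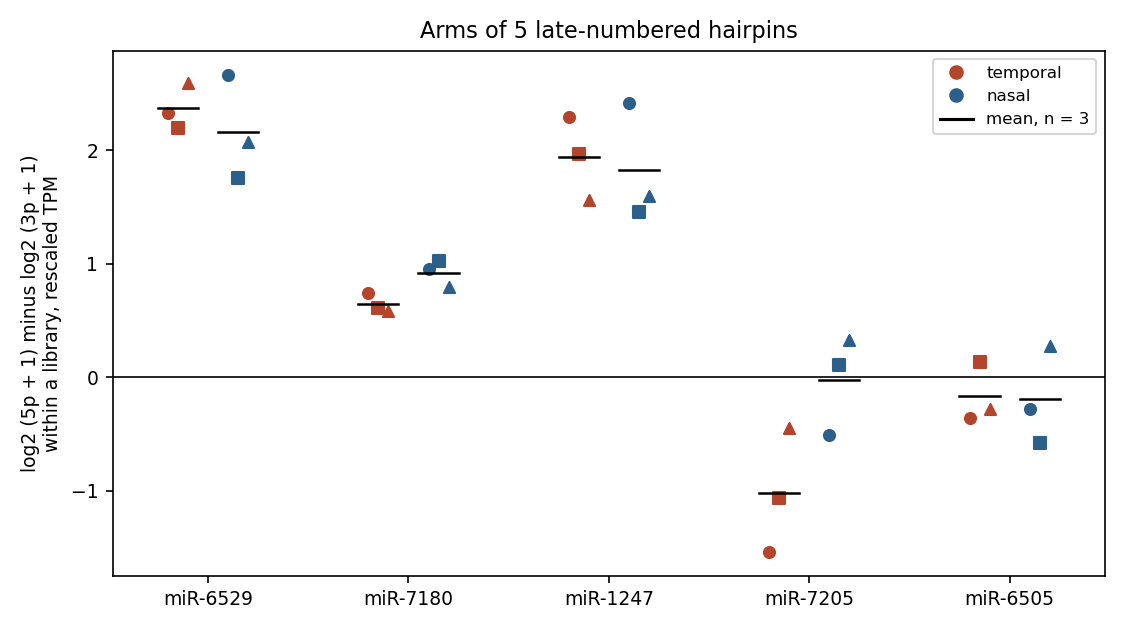
Log2 of the 5p arm minus log2 of the 3p arm (rescaled TPM + 1) within each library for 5 late-numbered hairpins, temporal left and nasal right; symbols are libraries and bars are means of 3. Values of miR-6529, miR-1247 and miR-7180 lie above 0 in all 6 libraries, and in miR-7205 the temporal values lie lower than the nasal ones apart from 1 overlapping pair.

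The late-numbered hairpins lay mostly inside protein-coding genes. In the RefSeq annotation, 29 of the 30 hairpins were found, and 24 of these (82.8%) lay within the limits of a protein-coding gene, against 100 of 189 lower-numbered hairpins found (52.9%). Strand and intron were not looked up. The most abundant, miR-6529, lies in GSK3B, a kinase of Wnt and insulin signalling. miR-1180 lies in B9D1, a protein of the ciliary transition zone, miR-7180 in EFCAB2, an EF-hand protein, miR-4446 in SIDT1, a relative of the double-stranded RNA channel of worms, miR-7184 in the zinc finger gene JAZF1, and miR-7205 in SAMM50, which inserts proteins into the outer mitochondrial membrane. By position in this annotation, no gene held miR-1247, miR-1251, miR-7172, miR-7181 or miR-7186. A fixed list of genes, also used for miR-1306, names RMST for miR-1251, and no mRNA value of RMST was found.

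The mRNA of these genes differed little between the regions, as far as means without a spread can tell. GSK3B had an authors' mean of 154 CPM (read counts scaled to a common library size) in temporal and 153 CPM in nasal retina, a log2 ratio of 0.01 on CPM + 1, beside -1.28 for miR-6529-5p. SIDT1 was at 1.53 CPM in temporal and 2.16 CPM in nasal retina (-0.32) and JAZF1 at 29.1 CPM in temporal and 33.1 CPM in nasal retina (-0.18). B9D1 had 4.60 CPM in temporal and 5.75 CPM in nasal retina (-0.27), and SAMM50 had 48.6 CPM in temporal and 52.1 CPM in nasal retina (-0.10). EFCAB2 was the higher one in temporal retina, with 52.7 CPM against 45.7 CPM in nasal retina (0.20), while miR-7180-5p was lower there. Over the 18 hairpins with a tested arm and a value for the gene, gene and miRNA lay on the same side of 0 in 9, of which 6 were lower and 3 higher in temporal retina. Log2 ratios of these genes ran from -0.43 to 0.24, apart from ARL10, a small GTPase that holds miR-1271, at 2.10 CPM in temporal and 4.48 CPM in nasal retina (-0.82). None of these mRNA differences has a replicate check.

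**Figure D5:**
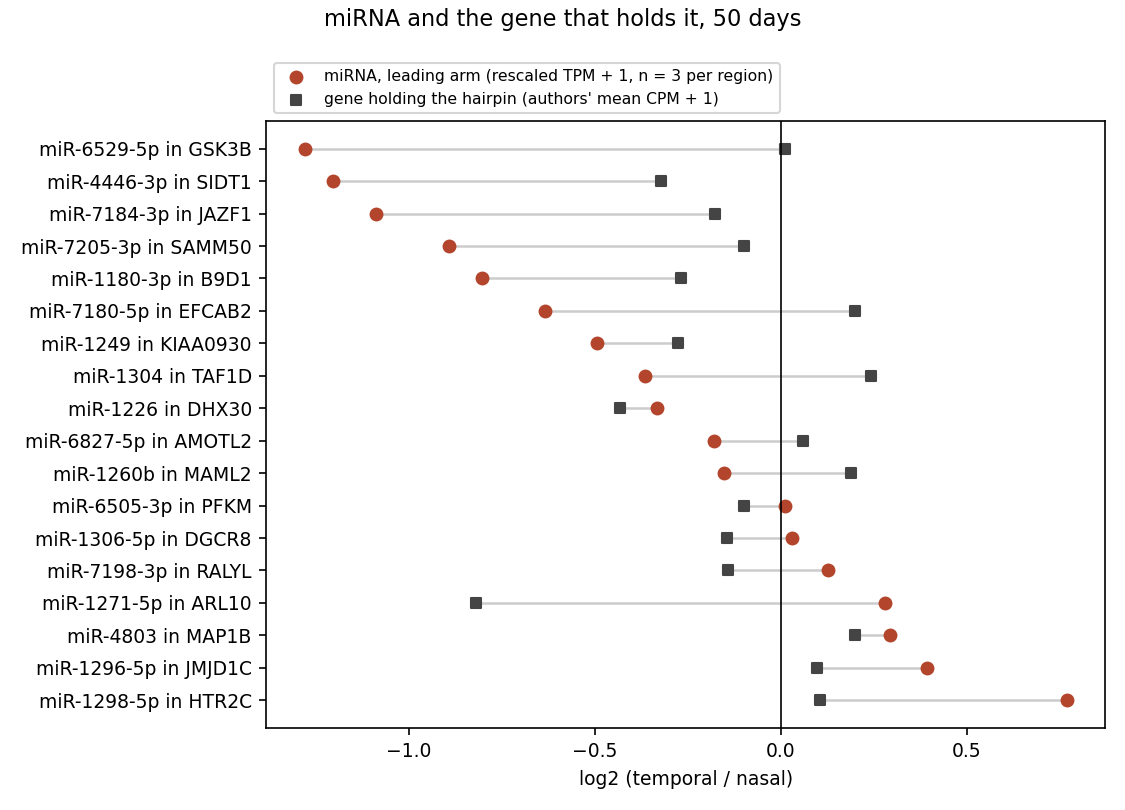
Log2 ratio, temporal over nasal, of the leading arm of 18 late-numbered hairpins (circles, rescaled TPM + 1, 3 libraries per region) and of the gene that holds the hairpin (squares, the authors' mean CPM + 1, no error). The squares stay between -0.43 and 0.24 except that of ARL10, and 9 of the 18 pairs lie on the same side of 0.

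Genes that hold scarce late-numbered miRNAs ranged widely in mRNA level. MAP1B, a microtubule protein of growing axons, was at 6655 CPM in temporal and 5789 CPM in nasal retina, and its miR-4803 at a mean of 8.50 TPM. ANK2, an ankyrin of axons, was at 3237 CPM in temporal and 3541 CPM in nasal retina, with miR-1243-3p at 1.83 TPM, the scarcest member. HTR2C, a serotonin receptor that holds miR-1298, was at 0.978 CPM in temporal and 0.838 CPM in nasal retina, with miR-1298-5p at 7.67 TPM. CPM of mRNAs and TPM of miRNAs are separate scales, so only the order within each is compared. COL4A1, a collagen of vessel basement membranes that holds miR-7170, was at 76.4 CPM in temporal and 105 CPM in nasal retina. In the same means, fetal hemoglobin HBG2 had 0.320 CPM in temporal and 5.92 CPM in nasal retina, the endothelial PECAM1 0.532 CPM in temporal and 2.01 CPM in nasal retina, and the fibroblast collagen COL3A1 was listed at 0 in temporal and at 13.6 CPM in nasal retina. Among the other listed markers of blood, HBA1 was at 0 CPM in both regions, and ALAS2 at 0 CPM in temporal and 0.291 CPM in nasal retina. CDH5 and VWF of endothelium had 0 and 1.86 CPM in temporal and 1.24 and 3.18 CPM in nasal retina. COL1A1 and LUM of mesenchyme had 0.887 and 0.760 CPM in temporal and 2.83 and 6.06 CPM in nasal retina. All but HBA1 were lower on the temporal side, as COL4A1 was, most of them near 0. The part of non-retinal cells in the gene values was not tested.

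The genes that make miRNAs were near even between the regions. By the authors' means, DROSHA was at 262 CPM in temporal and 248 CPM in nasal retina, XPO5 at 250 CPM in temporal and 232 CPM in nasal retina, and DICER1 at 558 CPM in temporal and 542 CPM in nasal retina. AGO1, an Argonaute, was at 404 CPM in temporal and 371 CPM in nasal retina. DGCR8, whose own transcript holds miR-1306, was at 115 CPM in temporal and 128 CPM in nasal retina. The lariat enzyme DBR1, on which mirtrons such as miR-1226 depend, was at 44.0 CPM in temporal and 36.2 CPM in nasal retina, and DHX30, the helicase gene that holds miR-1226, at 70.0 CPM in temporal and 94.7 CPM in nasal retina. TARBP2, a partner of DICER1, had the lowest ratio, with 7.02 CPM in temporal and 11.2 CPM in nasal retina (log2 ratio -0.60). The median log2 ratio was 0.04 over 11 processing genes and -0.02 over 13934 genes of at least 1 CPM.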

How the data were processed

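Total RNA of retinal punches was made into small RNA libraries with a NEBNEXT kit and matched by the authors to miRBase, at a release their paper states; the tool used for this match was not given in the sources used here, and edgeR is named in the submitters' processing notes. The deposited miRNA values are a score, TPM rounded to whole numbers, from which read depth is unknown. At 50 days the deposited mRNA signal is 1 mean for each region, made by the authors on a CPM scale from reads aligned with Bowtie2 and Tophat to the Mmul_1 build. The authors' columns of means, fold changes, p-values and FDR in the miRNA table were not used, and neither were 4 mRNA columns of later ages.

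Groups and replicate numbers came from the sample titles. That the 3 libraries of a region are separate fetuses is not stated, so p-values measure the spread between these libraries. Values were rescaled by median ratios over 330 rows, rows with a mean of at least 5 TPM were kept (283 of 339), and limma 3.58.1 (R 4.3.3; eBayes with trend) was fitted to log2(value + 1) over the 3 temporal and 3 nasal libraries, with Benjamini-Hochberg adjustment over all rows. A fold change on this scale understates that of scarce miRNAs. The arm comparison used the same tool on within-library differences of 62 hairpins. The titles give replicate numbers and state no pairing, so the main fit used none. Deviations from the region mean of libraries with the same number correlated at 0.50, 0.16 and 0.12 over the tested miRNAs. A block by replicate number was fitted as an alternative. Consecutive sample codes, which would pair other libraries (correlations of -0.15, -0.19 and 0.22), were fitted as a second block. These correlations do not settle a pairing.

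Genes that hold a hairpin were looked up by position in the RefSeq annotation of a later assembly, T2T-MMU8v2.0, used for names only; miR-1306 was not found there and was set beside DGCR8 from a fixed list. Mature sequences were not used here, so the planned seed comparison was not run. Named with all values were members called, those of at least 100 TPM, pairs of tested arms and members known to share a seed; miR-1298-5p, miR-1296-5p, miR-4803, miR-7186-5p, miR-1260b, miR-1226, miR-1249, miR-1306-3p and miR-1243-3p were added after their values were seen. Members and lists were chosen with earlier results of these data known. Alternatives were other scalings, pseudocounts, minimums and variance models, blocks, and leaving out each library.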

Additional observations from a re-analysis of the deposited data

Results flagged for a closer look

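The arm ratio of miR-7205 differed between temporal and nasal retina by -0.99 on the log2 scale (SE 0.278, limma adjusted p = 0.00775 over 62 hairpins, region term), where 46.8% of these hairpins changed. The ratio of the 5p to the 3p arm was lower on the temporal side in 8 of the 9 pairs of a temporal with a nasal library. With 3 libraries per region, single values were not examined for outliers. The cause was not tested.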

How the results depend on the processing

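Levels of at least 5 TPM alone put the medians at 13.7 TPM for late-numbered and 71.8 TPM for lower-numbered rows, still 5.26-fold apart; other settings left both medians within the spread of the libraries. Called members numbered 7 lower and 0 higher, beside 41 lower and 38 higher over all tested miRNAs. Lower calls were 0 with deposited TPM and 3 to 9 on leaving out single libraries (4 without nasal replicate 2, 3 without nasal replicate 3). They were between 5 and 9 under the other settings, with 9 under the replicate block and 5 with the sample codes as a block. Over all tested miRNAs, lower calls were 3 with deposited TPM, 47 under the replicate block and 29 with the sample codes as a block. On leaving out single libraries they ran from 22 without nasal replicate 3 to 63 without nasal replicate 1, with 28 without nasal replicate 2. Higher calls were 3 with deposited TPM, 1 with total scaling, 1 with no minimum, 1 without temporal replicate 2 (0 to 1 on leaving out single libraries) and 0 under the others. Over all tested miRNAs, higher calls in these settings were 77 with deposited TPM, 47 with total scaling, 49 with no minimum and 25 without temporal replicate 2. The replicate block added the calls of miR-1247-3p and miR-7205-3p and changed no other tested member's call. The sample code block removed those of miR-7180-5p (adjusted p = 0.0867) and miR-7205-5p (adjusted p = 0.0787). Which of these, if either, pairs punches of the same fetus is not stated. With deposited TPM the sign turned for miR-7180-3p (0.19), miR-1247-5p (0.023), miR-7186-5p (0.14), miR-1260b (0.38), miR-1226 (0.20), miR-1249 (0.015), miR-6827-5p (0.32), miR-1304 (0.10) and miR-1251-5p (0.26). With upper quartile scaling it turned for miR-1306-5p (-0.011), miR-6505-3p (-0.029) and miR-6505-5p (-0.0051). On leaving out single libraries it turned for miR-1260b (-0.44 to 0.0065), miR-1306-5p (-0.12 to 0.20), miR-6505-3p (-0.20 to 0.19), miR-6505-5p (-0.046 to 0.15), miR-7172-5p (-0.10 to 0.23), miR-1251-5p (-0.37 to 0.053) and miR-7198-3p (-0.15 to 0.42). None of these had passed the threshold, and the cause was not tested. Over its alternatives the region change of the miR-7205 arm ratio, added after seeing the data, ran from -0.57 to -1.26. Whole-number TPM limit what can be seen in the scarcest members.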
